A study of Mus musculus with 4 samples.

Results

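The MHC class II genes measured here were 8 of the 12800 genes in the count table: Cd74, H2-Aa, H2-Ab1, H2-Eb1, H2-DMa, H2-DMb1, H2-DMb2 and Ciita, taken by symbol. They were followed in single microglia, the resident macrophages of the brain, of male mice aged 12 to 14 months that had been on a control or a 0.2% cuprizone diet for 12 weeks. Cuprizone is a copper chelator that kills oligodendrocytes and strips myelin from axons. There were 4 groups of 1 library each: Trem2 +/+ on control diet, Trem2 +/+ on cuprizone, Trem2 +/- on cuprizone and Trem2 -/- on cuprizone, called below wild-type control, wild-type cuprizone, heterozygote and knockout. Trem2 encodes a lipid-sensing receptor of microglia, and the +/- and -/- mice carry a knockout of it on 1 or both alleles. Each library pooled sorted CD11b+ CD45low live cells from 2 animals, 30000 from each hemibrain, so the gate could also admit other brain macrophages. With 1 library a group there was no replicate check of any difference, and no test was run. Every 95% interval covers counting error only.

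MHC class II molecules display peptides from engulfed protein to helper T cells. An alpha chain (H2-Aa) pairs with a beta chain (H2-Ab1 or, in mouse strains with a working alpha partner, H2-Eb1), and the invariant chain Cd74 fills the groove and guides the pair to the endosome. There the H2-DM heterodimer exchanges the remnant of Cd74 for a peptide, and the coactivator Ciita switches most of these genes on together. Resting microglia carry little class II, whereas macrophages at the borders of the brain and microglia in demyelinated tissue are known to carry more.

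Ciita acts through factors bound at a conserved promoter module, in which an X box, partly of cyclic-AMP-response type, lies a set distance upstream of a Y box, an inverted CCAAT box. These promoters are shown because the members described below fall into genes that moved with diet and genotype and genes that did not. RefSeq's promoter table (GRCm38.p6) matched 5 of the 8 members. Each line gives the 130 bases before the listed start, 5′ to 3′ on the gene's strand. Capitals mark TGATTGG, the letters of a Y box. They also mark TGACGTCA, letters of cyclic-AMP-response type, and the shorter run GATGATG. Each was searched on both strands of the 250 bases before the start, and the matches do not overlap.
H2-Aa, chr17:34287824-34287953, minus strand: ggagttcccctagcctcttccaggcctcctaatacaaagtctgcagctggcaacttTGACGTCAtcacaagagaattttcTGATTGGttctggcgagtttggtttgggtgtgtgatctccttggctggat
H2-Eb1, chr17:34305737-34305866, plus strand: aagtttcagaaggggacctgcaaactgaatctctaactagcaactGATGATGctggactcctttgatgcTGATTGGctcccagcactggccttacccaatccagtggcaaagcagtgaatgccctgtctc
H2-DMb1, chr17:34153061-34153190, plus strand: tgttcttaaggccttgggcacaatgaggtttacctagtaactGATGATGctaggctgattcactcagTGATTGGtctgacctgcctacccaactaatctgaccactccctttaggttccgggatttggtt
H2-DMb2, chr17:34145119-34145248, plus strand: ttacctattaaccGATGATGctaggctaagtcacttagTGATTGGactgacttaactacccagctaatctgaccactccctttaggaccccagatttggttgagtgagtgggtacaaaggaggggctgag
In H2-Aa the letters TGACGTCA began 24 bases before TGATTGG, and in H2-Eb1 the letters GATGATG began the same 24 bases before it. The distance was 25 bases in H2-DMb1 and in H2-DMb2. Of 32851 promoters in the table, 2375 (7.23%) held TGATTGG, 959 (2.92%) held GATGATG and 508 (1.55%) held TGACGTCA within 250 bases before the start. GATGATG lay 24 or 25 bases before TGATTGG in 3 promoters of the whole table, those of H2-Eb1, H2-DMb1 and H2-DMb2. This spacing was searched after the sequences had been seen, so the 3 promoters are a description only. Neither listed start of H2-DMa held any of these letters. The matches are letters only, and no binding was measured here.

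The members lie on 3 chromosomes in mm10. H2-DMa, H2-DMb2, H2-DMb1, H2-Ab1, H2-Aa and H2-Eb1 sit in the MHC of chromosome 17, between position 34119541 (start of H2-DMa) and 34316674 (end of H2-Eb1). Ciita spans positions 10480059 to 10528418 of chromosome 16, and Cd74 lies on chromosome 18. H2-DMb1 and H2-DMb2 are related copies: of the 1031 runs of 50 bases in the last 500 bases of H2-DMb1 transcripts, 283 (27.4%) also occur in H2-DMb2 transcripts. Of the 457 runs at the ends of H2-DMb2 transcripts, 0 occur in H2-DMb1 and 62 (13.6%) occur in transcripts of 164 other genes. The counts of both genes are therefore uncertain. The ends of Cd74, H2-Aa, H2-Ab1, H2-Eb1, H2-DMa and Ciita held 0 such runs in another gene.

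The 4 libraries held 571 to 885 cells with a median of 5220 to 6848 UMIs (unique molecular identifiers, each counting 1 captured transcript). Trem2 was at 2988 UMIs per 1000000 of the library (CPM) in wild-type control, 2782 in wild-type cuprizone, 1675 in the heterozygote and 494 in the knockout library, the order of the labels. The authors placed the cells in 8 clusters. Markers of microglia made up a median of 1.49% to 3.35% of a cell's UMIs in clusters 01, 02, 04, 05, 06 and 08, which are pooled below as the microglial clusters (479, 663, 695 and 753 cells in the order above). They made up 0.150% in cluster 03, whose 66 cells also held neutrophil markers at 10.4% and choroid plexus markers at 7.09% of their summed UMIs. Cluster 07 (85, 81, 87 and 114 cells) had microglia markers at 1.60% and markers of border-associated macrophages at 0.331% (medians), where the median of every other cluster was at most 0.0259%. All members except Cd74 were among the genes the authors used to cluster, so differences between clusters are descriptions. There were 8 cell barcodes found in 2 libraries each (16 cells).

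Cd74, H2-Aa, H2-Ab1 and H2-Eb1 behaved as one block in the microglial clusters: all 4 were higher in wild-type cuprizone than in wild-type control and all 4 were lower in the knockout than in either other cuprizone library. The peptide editors H2-DMa, H2-DMb1 and H2-DMb2 moved with neither diet nor genotype by the rule used here. That rule calls a ratio of at least 1.5-fold in either direction whose interval excludes 1, given at least 50 UMIs over both libraries. The 3 comparisons of cuprizone libraries share samples, as do those with wild-type cuprizone, so their values are set side by side and are not independent.

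Cd74, the invariant chain, was at 365.5 CPM in wild-type control, 1097 in wild-type cuprizone, 1156 in the heterozygote and 266.2 in the knockout microglial clusters. It was 3.0-fold higher in wild-type cuprizone than in control (95% interval 2.83 to 3.18) and 4.12-fold lower in the knockout than in wild-type cuprizone (3.91 to 4.35). The knockout lay below the control library as well, and the 2 cuprizone libraries with a working Trem2 allele lay close together (heterozygote against wild type 1.05, 1.02 to 1.09). A Cd74 UMI was found in 59.5%, 69.2%, 68.4% and 42.2% of the cells in the same order. In cluster 03 the share was 34.8% of 66 cells at a median of 4960 UMIs per cell, against a median of 6201 in the microglial clusters.

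H2-Aa, the alpha chain, was at 62.4 CPM in wild-type control, 183.5 in wild-type cuprizone, 206.0 in the heterozygote and 59.6 in the knockout. Its ratio was 2.94-fold higher on cuprizone in wild type (2.55 to 3.41) and 3.08-fold lower in the knockout than in wild-type cuprizone (2.74 to 3.47). H2-Ab1, its beta partner, was at 104.7, 230.6, 270.3 and 85.0 CPM, which was 2.20-fold higher with the diet (1.97 to 2.47) and 2.71-fold lower in the knockout (2.46 to 2.996). Both chains thus had their 2 high libraries and their 2 low libraries in common with Cd74. H2-Eb1, the other beta chain, was at 46.2, 110.6, 112.9 and 31.5 CPM. It was 2.40-fold higher with the diet (2.02 to 2.85) and 3.51-fold lower in the knockout (3.002 to 4.13). H2-Eb1 UMIs were seen in 16.7%, 22.2%, 22.6% and 8.499% of the cells.

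The editors formed a second pattern. H2-DMa was at 368.6 CPM in wild-type control, 388.5 in wild-type cuprizone, 355.0 in the heterozygote and 319.0 in the knockout, with UMIs in 81.4% to 87.8% of the cells of each library. Its knockout level was 1.22-fold below wild-type cuprizone (1.15 to 1.29), under the fold that counts as a call. H2-DMb1 was at 217.1, 209.2, 228.0 and 208.6 CPM, with a knockout-to-wild-type ratio of 0.997 (0.923 to 1.08). H2-DMb2, the rarer copy, had 32, 62, 61 and 53 UMIs, or 8.14 to 10.0 CPM. The levels of these 3 genes therefore span a narrow range across the libraries in which the chains and Cd74 differ by up to 4.34-fold.

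Ciita, the transactivator, was close to the detection limit, with 25 UMIs in 25 cells of the whole table, 1 in each cell. In the microglial clusters it had 0, 4, 3 and 1 UMIs in the 4 libraries, too few for any comparison.

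**Figure D1:**
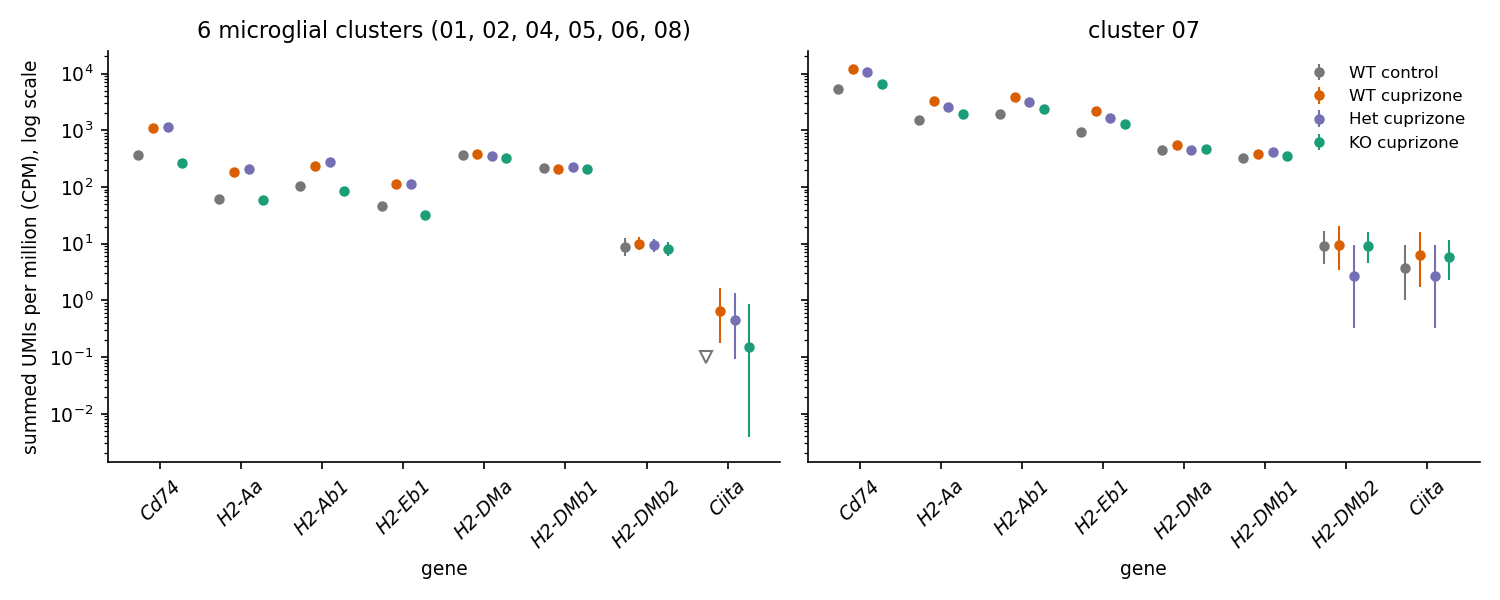
CPM (UMIs per 1000000, log axis) of the 8 MHC class II genes in each of the 4 libraries, for the microglial clusters and for cluster 07; points are single libraries, bars are exact Poisson 95% intervals, and an open triangle marks 0 UMIs. In the microglial clusters Cd74 runs from 266.2 to 1156 CPM, whereas H2-DMa stays between 319.0 and 388.5.

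By count, 4 of the 7 members with at least 50 UMIs were higher in wild-type cuprizone than in wild-type control, where 2.59% of all 8819 genes so tested were. In the knockout against wild-type cuprizone 4 of 7 were lower, with 3.86% of all genes lower. Against the heterozygote 4 of 7 were lower in the knockout, with 3.64% of all genes lower, and the folds were 4.34 for Cd74, 3.46 for H2-Aa, 3.18 for H2-Ab1 and 3.59 for H2-Eb1. Between the heterozygote and wild-type cuprizone 0 of 7 members were called in either direction, where 1.32% of all genes were higher and 1.17% lower. The median log2 ratio of the 7 members was 1.14 for the diet, −1.44 for the knockout against wild type, −1.67 for the knockout against the heterozygote and 0.08 for the heterozygote against wild type. The medians over all genes were −0.11, −0.0015, 0.0085 and −0.0076. Ciita is the member left out of these counts.

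The summed level of Cd74, H2-Aa, H2-Ab1 and H2-Eb1 (the class II sum) was 578.8 CPM in wild-type control, 1621 in wild-type cuprizone, 1746 in the heterozygote and 442.3 in the knockout microglial clusters. It was 2.80-fold higher with the diet in wild type (2.67 to 2.94), 3.67-fold lower in the knockout than in wild-type cuprizone (3.52 to 3.82) and 3.95-fold lower than in the heterozygote (3.79 to 4.11). In a sum over cells, fewer cells of a kind and less RNA in each of them cannot be told apart, so the sum was next taken cluster by cluster.

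Cluster 04 had the highest class II sum among the microglial clusters in every library, but 1 cell decided its value in both libraries where it was rare. It was at 1041 CPM in wild-type control (6 cells), 3440 in wild-type cuprizone (122 cells), 3602 in the heterozygote (150 cells) and 3694 in the knockout (13 cells). Its knockout level was 1.07 times that of wild-type cuprizone (0.980 to 1.18). In the knockout 1 of the 13 cells gave 243 of the 527 class II UMIs. Without that cell the knockout was at 2147 CPM, 0.624 times wild-type cuprizone (0.552 to 0.704) and 0.596 times the heterozygote (0.528 to 0.672), both called lower. With the top cell also left out of wild-type cuprizone the ratio was 0.737 (0.651 to 0.832), short of a call. The Poisson interval does not cover such differences between cells, so cluster 04 gives no settled direction for the knockout. In control 1 of the 6 cells gave 39 of 71 UMIs, and without it cluster 04 was at 545.7 CPM and below cluster 02. Cluster 04, which carries genes of disease-associated microglia such as the lipid carrier Apoe, held 18.4%, 21.6% and 1.73% of the pooled cells of the wild-type, heterozygote and knockout cuprizone libraries, against 1.25% in control.

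In cluster 02 the sum was 874.4, 1553, 1581 and 474.2 CPM in the 4 libraries, which was 1.78-fold higher with the diet (1.67 to 1.89) and 3.28-fold lower in the knockout than in wild-type cuprizone (3.09 to 3.47). In cluster 01 it was 254.0, 522.9, 256.1 and 109.1 CPM, 4.79-fold lower in the knockout than in wild-type cuprizone (3.45 to 6.78). The heterozygote was at 0.490 times wild-type cuprizone in cluster 01 (0.379 to 0.629), a value that rests on 1 wild-type cell with 55 of the 178 UMIs. Without that cell wild-type cuprizone was at 368.2 CPM, the heterozygote ratio was 0.696 and the diet ratio 1.45, neither of them a call, and the knockout was 3.37-fold lower (2.39 to 4.84). Clusters 05 and 06 were not higher on cuprizone. Cluster 05 was at 359.4, 336.5, 288.9 and 227.0 CPM, and cluster 06 at 394.1, 312.7, 276.9 and 170.3 CPM. The knockout of cluster 05 was short of a call against wild-type cuprizone and was called lower (0.521, 0.416 to 0.649) without 1 knockout cell that held 38 of its 160 UMIs. In cluster 08 the sum was 659.2, 766.6, 895.0 and 320.8 CPM, 2.39-fold lower in the knockout than in wild-type cuprizone (2.07 to 2.76). The knockout was thus the lowest library in clusters 01, 02, 05, 06 and 08. In cluster 04 control was lowest, and the place of the knockout among the cuprizone libraries depended on 1 cell.

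Without cluster 04 the pooled sum was still 0.341 times the wild-type cuprizone level in the knockout and 1.90 times the control level in wild-type cuprizone. With the 6 clusters given equal weight, so that the 13 knockout cells of cluster 04 count as much as its 122 wild-type cells, the knockout ratio was 0.721 and 1 member, H2-Eb1, was called lower. Without the 1 knockout cell of cluster 04 named above, the same weighting gave a ratio of 0.498 and 4 members called lower. In all deposited cells, cluster 07 included, the ratios were 1.27 for the diet and 0.674 for the knockout, and neither passed 1.5-fold.

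**Figure D2:**
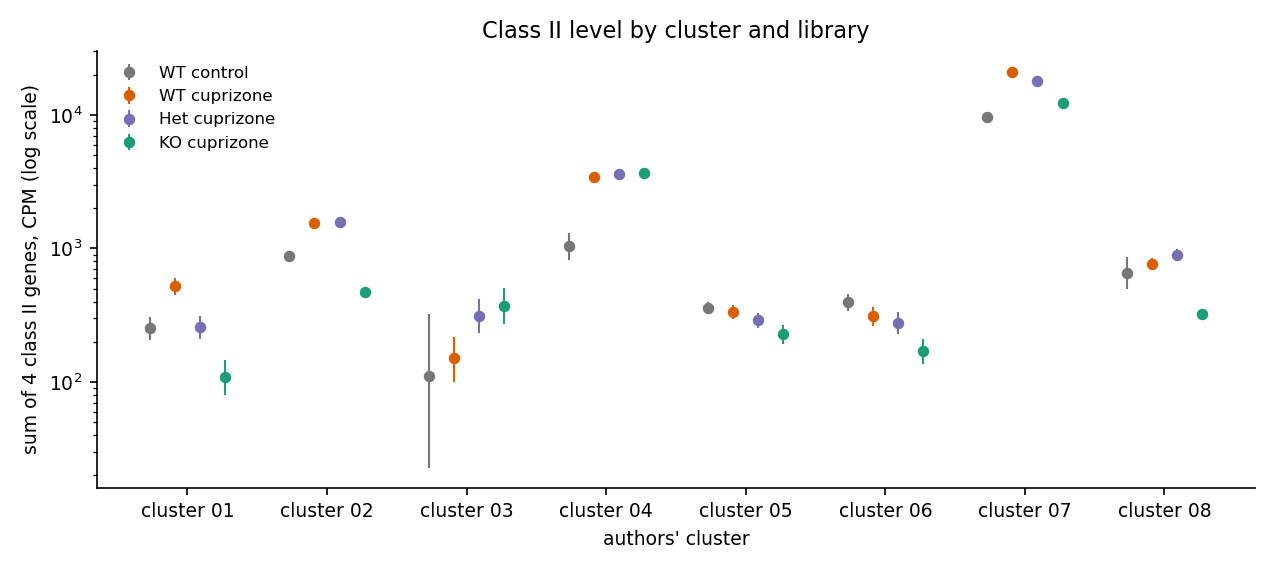
Class II sum (Cd74, H2-Aa, H2-Ab1 and H2-Eb1, in CPM, log axis) in each of the authors' 8 clusters and each library, with exact Poisson 95% intervals. Cluster 07 is highest in all 4 libraries (9687 to 21136 CPM), cluster 04 follows, and in cluster 04 the knockout library (3694 CPM, 2147 without 1 cell) lies beside the other cuprizone libraries.

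The distribution over single cells was strongly skewed. The median cell of the microglial clusters spent 0.0285%, 0.0352%, 0.0346% and 0.0111% of its UMIs on the class II sum in the 4 libraries, and the highest cell 5.95%. The 95th percentile was 0.129% in control, 0.553% in wild-type cuprizone, 0.716% in the heterozygote and 0.0910% in the knockout. The diet difference was therefore larger in the upper tail than at the median. Cells with no UMI of the 4 genes were 113 of 479, 140 of 663, 139 of 695 and 301 of 753, so the knockout had the most. After each cell was thinned to 2915 UMIs, with 69, 59, 51 and 80 shallower cells left out, 56.3%, 62.6%, 64.3% and 36.7% had at least 1 such UMI (76.4%, 78.9%, 80% and 60.03% before thinning). In cluster 03 the share was 28.0% after thinning and 56.1% before.

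**Figure D3:**
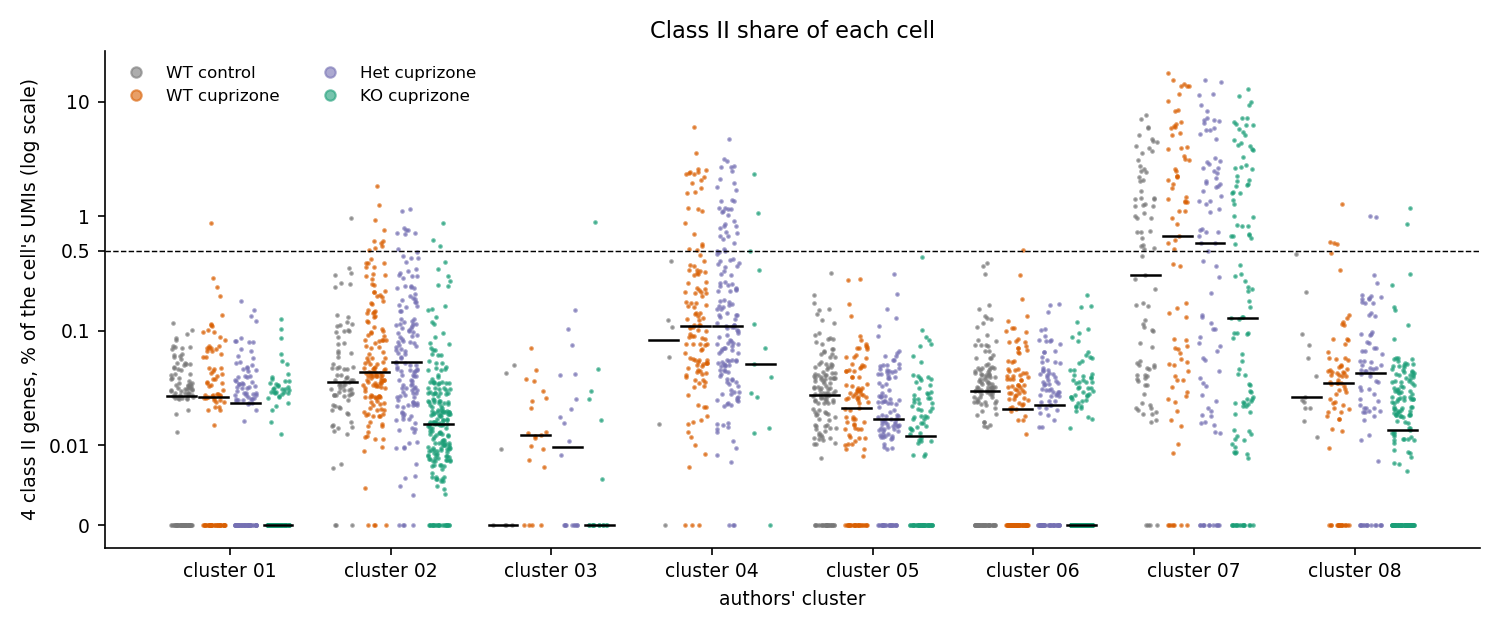
Share of each cell's UMIs (percent, log axis) that came from Cd74, H2-Aa, H2-Ab1 and H2-Eb1, by cluster and library; each point is a cell, cells at 0 are drawn at the bottom, black bars are medians and the dashed line is the 0.5% limit. Points above the line are frequent in cluster 07 and in cluster 04 and absent in cluster 05.

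A cell was called strongly positive when the 4 genes together made up at least 0.5% of its UMIs. In the microglial clusters this held for 1 of 479 cells in wild-type control (0.209%, exact binomial 95% interval 0.00529 to 1.16), 40 of 663 in wild-type cuprizone (6.03%, 4.35 to 8.13), 44 of 695 in the heterozygote (6.33%, 4.64 to 8.41) and 7 of 753 in the knockout (0.930%, 0.375 to 1.91). The limit cuts a continuous range, with 19 cells at 0.4% to 0.5% and 16 at 0.5% to 0.6%. Of the 92 cells, 59 were in cluster 04 (0, 24, 33 and 2 in the 4 libraries), 23 in cluster 02 (1, 10, 9 and 3), 8 in cluster 08, 1 in cluster 01 and 1 in cluster 06. Cluster 05 had 0 of 449, which allows a share of up to 0.818% by the exact interval. Within cluster 04 the strongly positive share was 19.7% of 122 wild-type cuprizone cells, 22.0% of 150 heterozygote cells and 15.4% of 13 knockout cells (1.92 to 45.4), which at this depth cannot be separated.

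**Figure D4:**
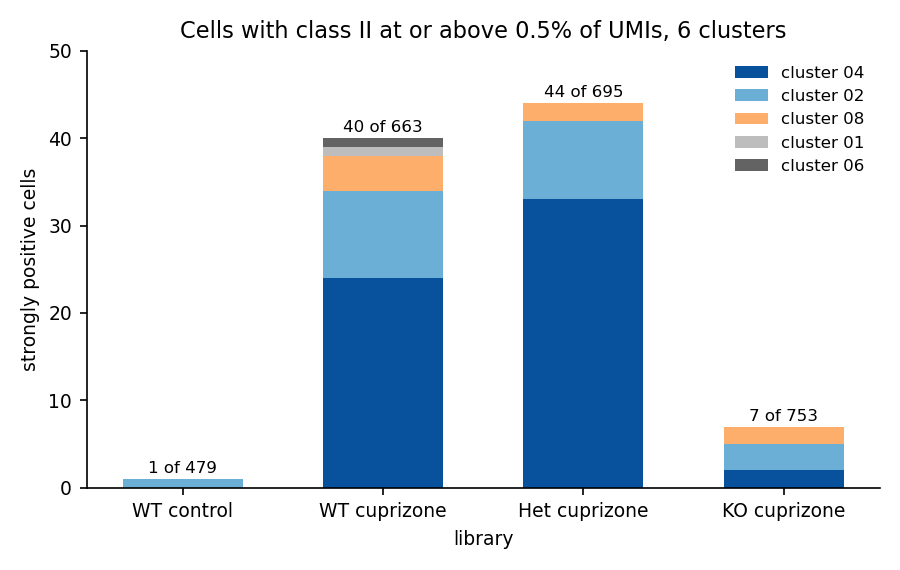
Number of strongly positive cells (at least 0.5% of UMIs from the class II sum) in the microglial clusters of each library, stacked by the authors' cluster. The bars stand for 1 of 479, 40 of 663, 44 of 695 and 7 of 753 cells, and cluster 04 fills the larger part of both high bars.

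These 92 cells held 13427 of the 26438 class II UMIs of the microglial clusters (50.8%). By library they held 14.9% in control, 56.9% in wild-type cuprizone, 56.6% in the heterozygote and 32.6% in the knockout. The cell with the most gave 14.9%, 7.78%, 4.04% and 8.44% of its library's class II UMIs. In the control library that cell is the only strongly positive one, and it is among the deepest 1% of cells.

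With the strongly positive cells left out, the class II sum of the remaining microglial cells was 497.0 CPM in wild-type control, 753.6 in wild-type cuprizone, 826.7 in the heterozygote and 303.0 in the knockout. The diet ratio was then 1.52 (1.44 to 1.60), and 1 of 7 members, Cd74, was called higher, where 2.48% of all genes were. H2-Aa, H2-Ab1 and H2-Eb1 were at 1.28, 1.18 and 1.22 times control. In the knockout 4 of 7 members were lower than in wild-type cuprizone, where 3.79% of all genes were, and 4 of 7 were lower than in the heterozygote, where 3.67% were. The sum was 2.49-fold lower than in wild-type cuprizone (2.36 to 2.63) and 2.73-fold lower than in the heterozygote (2.59 to 2.88). Removing cells by their class II level lowers the level by construction, so these values describe the remaining cells only.

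Of the 92 strongly positive cells 82 had a UMI of each of Cd74, H2-Aa, H2-Ab1 and H2-Eb1, against 162 of the 2498 other microglial cells (6.49%). The limit is set on the sum of these 4 genes, so this difference follows in part from the choice of cells. Ciita had 6 UMIs in 6 of the 92 cells (6.52%) and 2 in the 2498 others (0.0801%). The median depth was 9670 UMIs in the strongly positive cells and 6067 in the others. H2-DMa was at 462 CPM in the strongly positive cells and 350 in the others, and H2-DMb1 at 279 and 212. Within cluster 04, which holds 59 of the 92 cells, H2-DMa was at 505 against 329 CPM and H2-DMb1 at 299 against 202. H2-DMa and H2-DMb1 thus had the higher level in the strongly positive cells in these sums over libraries. The rare H2-DMb2 did not, at 8.82 against 9.11 CPM pooled and 1.79 (1 UMI) against 5.63 in cluster 04. Single libraries also differed: in cluster 02 of wild-type cuprizone H2-DMa was at 316 CPM against 378. In cluster 04 of the knockout H2-DMb1 was at 88.9 (2 UMIs) against 191.

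The markers of other cell types were then compared between strongly positive and other cells of the same cluster. In cluster 04 the 59 strongly positive cells (median 8160 UMIs) had microglia markers at 13308 CPM against 16256 in the other 232 cells (median 11264), and border-associated macrophage markers at 532 against 511. Genes of disease-associated microglia were at 97457 CPM against 63522, a difference that Apoe made up, at 82449 against 48880. The other 13 genes summed to 15008 against 14641 CPM over all libraries, 9 of them at a higher and 4 at a lower level in the strongly positive cells. The direction of this sum differed by library. It was 15290 against 13971 CPM in the heterozygote, 15010 against 15739 in wild-type cuprizone and 10621 against 12432 in the knockout. Dendritic cell markers were at 50.2 against 35.6 CPM (28 UMIs in all). Monocyte markers were at 167 against 49.6, and 65 of their 93 UMIs came from the 2 knockout cells, where they reached 2889 CPM. Those 2 cells therefore differ in their markers from the 57 others, and what part this has in the knockout value of cluster 04 was not tested.

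In cluster 02 the 23 strongly positive cells were deeper (median 23913 UMIs against 16875) and had border markers at 753.5 CPM against 501.3. A UMI of the chemokine Pf4 was found in 78.3% of them against 46.7% of the other cells, of the membrane protein Ms4a7 in 73.9% against 34.5% and of the mannose receptor Mrc1 in 47.8% against 25.7%. Microglia markers were at 18095 CPM against 21959. Deeper cells show more genes in any case, and the part of depth was not tested. Over all microglial clusters, border markers summed to 373.5 CPM in wild-type control, 422.3 in wild-type cuprizone, 428.8 in the heterozygote and 341.4 in the knockout, with all 11 markers seen in every library. Of the 10 border markers with at least 50 UMIs, 4 were called higher with the diet (Lyve1, Cbr2, Ms4a7 and Folr2), and in the knockout against wild-type cuprizone 4 were lower (Cd163, Lyve1, F13a1 and Ms4a7) and 1 higher (Ccl8). Of all genes, 2.59% were higher with the diet. In the knockout against wild-type cuprizone 3.86% were lower and 151 of 9189 higher. The 4 sums had the same order as the class II sums, and their part in the class II differences was not tested. Dendritic cell markers summed to 22.3 to 27.5 CPM in the 4 libraries, and 1 of the 2 with 50 UMIs, Clec10a, was lower in the knockout than in wild-type cuprizone (3.53 against 6.15 CPM) and than in the heterozygote (6.72 CPM). Monocyte markers summed to 11.8 to 44.6 CPM. Both monocyte markers testable for the diet were higher, the matrix protein Fn1 at 8.58 against 2.199 CPM and Ms4a4c at 12.95 against 6.05. Both were lower in the knockout than in wild-type cuprizone, Fn1 at 0.154 CPM on 1 UMI and Ms4a4c at 7.68, while Chil3 was higher (8.29 against 0.648). Fn1 and Ms4a4c were also lower in the heterozygote than in wild-type cuprizone, at 5.19 and 8.09 CPM. The part of such cells in the class II values was not tested.

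Genes of disease-associated microglia moved with the block as well. Of 14 tested in the microglial clusters, 13 were higher with the diet, where 2.59% of all genes were. In the knockout 11 of the 14 were lower than in wild-type cuprizone, where 3.86% of all genes were. The sum of the 14 was 8128 CPM in control, 26966 in wild-type cuprizone, 38307 in the heterozygote and 19526 in the knockout. Apoe was at 4956, 20386, 31627 and 15283 CPM, and the other 13 genes summed to 3172, 6580, 6680 and 4242. The order of the libraries differed from that of class II: the knockout was above control in this sum, with or without Apoe, and below it in the class II sum.

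Cluster 07 held most UMIs of the chains: 62.7% of all Cd74, 72.2% of H2-Aa, 70.2% of H2-Ab1 and 74.4% of H2-Eb1 UMIs of the table came from its 367 of 3023 cells. It held 17.6% of H2-DMa, 21.1% of H2-DMb1 and 12.1% of H2-DMb2 UMIs, and 17 of the 25 Ciita UMIs. Most UMIs of the chains, Cd74 and Ciita thus came from this cluster, and most UMIs of the editors came from outside it. Still, H2-DMa was at 472.3 CPM in cluster 07 against 355.9 in the microglial clusters and H2-DMb1 at 359.1 against 215.7. H2-DMb2 was at 7.84 against 9.09.

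Within cluster 07 Cd74 was at 5325 CPM in wild-type control, 11825 in wild-type cuprizone, 10451 in the heterozygote and 6673 in the knockout. H2-Aa was at 1507, 3262, 2620 and 1926 CPM, H2-Ab1 at 1913, 3897, 3123 and 2336, and H2-Eb1 at 942.7, 2153, 1632 and 1316. All 4 had wild-type cuprizone highest and control lowest. Of 6 members with at least 50 UMIs, 4 were higher with the diet, where 2.90% of all genes tested in the cluster were, and the folds ran from 2.04 for H2-Ab1 (1.92 to 2.16) to 2.28 for H2-Eb1 (2.11 to 2.48). The same 4 were lower in the knockout than in wild-type cuprizone, where 2.93% of all genes were, by 1.64-fold for H2-Eb1 (1.52 to 1.76) to 1.77-fold for Cd74 (1.72 to 1.83). H2-DMa was at 439.9, 550.3, 447.1 and 475.4 CPM and H2-DMb1 at 321.6, 375.1, 410.0 and 352.5, neither past 1.5-fold.

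The class II sum of cluster 07 was 9687, 21136, 17826 and 12251 CPM, 2.18-fold higher with the diet (2.13 to 2.24) and 1.73-fold lower in the knockout than in wild-type cuprizone (1.69 to 1.77). The knockout to wild-type ratio was therefore 0.580 here (0.566 to 0.593) and 0.273 in the microglial clusters (0.262 to 0.284). Unlike the microglial clusters, the knockout of cluster 07 stayed above control. Median depth was 12319 UMIs per cell in control, 6324 in wild-type cuprizone, 6932 in the heterozygote and 9628 in the knockout, and after thinning to equal depth the diet ratio was 1.83 and the knockout ratio 0.564.

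The cells of cluster 07 divided into a class II-high and a class II-low range: 176 of 367 were strongly positive, 50 spent over 5% of their UMIs on the class II sum, and 12 lay between 0.4% and 0.6%. The highest cell reached 17.7%. Strongly positive cells were 41 of 85 in control (48.2%, 37.3 to 59.3), 44 of 81 in wild-type cuprizone (54.3%, 42.9 to 65.4), 45 of 87 in the heterozygote (51.7%, 40.8 to 62.6) and 46 of 114 in the knockout (40.4%, 31.3 to 49.95), intervals that overlap. The level among the strongly positive cells was 18873, 37341, 28780 and 27238 CPM. Wild-type cuprizone was highest and control lowest, and the knockout was 0.729 times wild-type cuprizone (0.713 to 0.747), short of a call. In the class II-low cells, whose level the limit caps by construction, the diet ratio of the sum was 1.003. Its members differed in direction. H2-Aa was at 133.2 CPM in wild-type cuprizone against 73.1 in control and H2-Eb1 at 52.6 against 51.2. Cd74 was at 448.5 against 475.2 and H2-Ab1 at 77.1 against 109.7. All 17 Ciita UMIs of the cluster were in strongly positive cells (9.66% of 176), with 0 in the 191 others. The editors differed too: H2-DMa was at 627 CPM in the strongly positive cells and 312 in the others, and H2-DMb1 at 507 and 205.

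Class II-high cells of cluster 07 had lower border markers, at 2289 CPM against 4405 in the class II-low cells. Among these genes, Mrc1 was at 148 against 360 CPM, the hyaluronan receptor Lyve1 at 37.1 against 114 and the folate receptor Folr2 at 84.3 against 242. Cd209a, 1 of 7 dendritic cell markers measured, was also lower, at 78.4 against 354. Ccr2, 1 of 6 monocyte markers measured, and Cxcl9 went the other way. Cd209a, Ccr2 and Cxcl9 are single genes of their lists, and no cell type is read from them. The monocyte chemokine receptor Ccr2 was at 30.2 against 4.41 CPM, and the interferon-gamma target Cxcl9 at 28.6 against 0.551, its 54 UMIs coming from 3.98% of the 176 cells.

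Microglia markers split the cluster a second time. At a limit of 1% of UMIs, chosen after the values were seen, 113 cells lay below (median 4150 UMIs) and 254 at or above (median 10924), with 25 between 0.8% and 1.2%. Class II-high cells were 50 of the 113 and 126 of the 254, so both ranges held high and low cells. Border markers had a median of 0.421% in class II-high and 0.977% in class II-low cells of the first range, and 0.137% against 0.340% in the second. In cells with microglia markers of 1% or more the class II sum was 9029, 14723, 14917 and 10822 CPM, and the knockout was 0.735 times wild-type cuprizone (0.714 to 0.757) with 0 members called lower, where 2.57% of all genes were. In cells below 1% it was 19825, 40902, 24888 and 27233 CPM, with a knockout ratio of 0.666 (0.637 to 0.696) and 2 members, Cd74 and H2-Eb1, called lower, where 5.05% of all genes were. The diet ratio was 1.63 in cells of 1% or more and 2.06 in cells below 1%. The heterozygote equalled wild type in cells of 1% or more (1.01, 0.981 to 1.05) and was 0.609 times wild type below 1% (0.587 to 0.631). Below 1%, 5 of 6 members, H2-DMa among them, were called lower in the heterozygote than in wild-type cuprizone, where 32 of 923 genes were. There 0 of 6 were lower in the knockout than in the heterozygote, where 33 of 821 genes were.

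The mix within the block differed by cluster. Cd74 made up 56.0% of the class II sum in cluster 07, 62.0% in cluster 02 and 69.4% in cluster 04, while H2-Eb1 made up 9.99%, 8.70% and 5.41%. Cluster 03, with 124 class II UMIs in 66 cells, had 69.4% Cd74 and 6.45% H2-Eb1. Its mix rests on few cells: 1 knockout cell held 35 of these UMIs (28.2%) and 1 heterozygote cell 21.

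Genes of the same pathway were counted from lists in the microglial clusters. Of 5 other class II genes listed, H2-Oa and H2-Ob, which encode the inhibitor of H2-DM, were measured, and H2-Oa was lower in the knockout than in wild-type cuprizone (43.6 against 70.3 CPM, ratio 0.620, 0.532 to 0.722). H2-Oa was at 54.7 CPM in strongly positive and 55.2 in other microglial cells, but single libraries differed in direction. It was at 38.15 against 72.78 CPM in wild-type cuprizone and 39.69 against 43.66 in the knockout. In the heterozygote it was at 64.85 against 49.02. In control, with 1 strongly positive cell, it was at 153.7 against 58.24. Of 7 genes for the class II transcription machinery with 50 UMIs, among them Rfx5, Nfya and Creb1, 0 were called in any of the 4 comparisons. The 10 antigen-processing proteases and reductases, among them Ctss, which trims Cd74, likewise gave 0 calls in all 4. Among 6 costimulation and turnover genes Cd80, a ligand of CD28, was lower with the diet in wild type (5.18 against 9.07 CPM, on 32 and 33 UMIs) and Cd274, a checkpoint ligand, lower in the knockout than in the heterozygote (6.45 against 11.5 CPM). These lists thus gave few calls where the chains and Cd74 gave 4 of 4. Calls were also few over all genes, with 392 of 8819 lower and 2.59% higher with the diet. In the knockout 3.86% of all genes were lower than in wild-type cuprizone and 3.64% lower than in the heterozygote. Lists of this size cannot set the rest of the presentation pathway apart from all genes.

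Interferon-gamma is the classical inducer of Ciita. Of the listed targets of interferon-gamma with 50 UMIs 3 of 11 were higher with the diet: the chemokine Cxcl10 at 72.5 against 36.3 CPM (2.0, 1.64 to 2.45), the GTPase Gbp2 at 11.5 against 7.15 and the GTPase Iigp1 at 7.77 against 1.37. The same 3 were lower in the knockout than in wild-type cuprizone, with ratios of 0.586, 0.654 and 0.316. Of all genes, 2.59% were higher with the diet and 3.86% lower in the knockout than in wild-type cuprizone. Gbp2 and Iigp1 were also lower in the heterozygote than in wild-type cuprizone (0.478 and 0.314), where the class II chains were not. Against the heterozygote 0 of 10 targets were lower in the knockout, where 3.64% of all genes were. At that share 0 of 10 cannot set these targets apart from all genes.

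Genes whose level followed the class II sum most closely were ranked by Pearson's r of log2(CPM + 10) over groups of cells (1 cluster in 1 library, at least 20 cells). These groups share libraries, clusters and depth, so r is a description. Over 21 groups of the microglial clusters and 7227 genes the closest were Cxcl14 (0.926), Cybb (0.922), Flt1 (0.913), Cd52 (0.911), Cxcl16 (0.906) and Itgax (0.894). Over 27 groups of all clusters they were Ms4a7 (0.969), Cxcl2 (0.954), Cd36 (0.9503), Ifi207 (0.946), Adam33 (0.940) and Pf4 (0.937), and 2 of these, Ms4a7 and Pf4, are border markers. Among the members outside the sum, r over the 21 groups was 0.61 for Ciita, with 8 UMIs, −0.0078 for H2-DMa, −0.17 for H2-DMb1 and −0.23 for H2-DMb2.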

How the data were processed

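Transcripts of sorted microglia were counted per cell in 4 libraries, 1 per group, with the Chromium Single Cell 3′ kit (v2 chemistry), per the labels' protocols. The values are UMI counts as the authors deposited them. The submitters' processing notes name Cell Ranger 2.1.1 and the build mm10. Notes beside the counts state that low-quality cells had been removed, and each cell's cluster is the authors'. The gene annotation behind the counts and the clustering settings stay unstated in the sources used. Gene positions are from GENCODE vM21 (mm10), promoters from RefSeq (GRCm38.p6).

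UMIs were summed per library over clusters 01, 02, 04, 05, 06 and 08, over cluster 07 and over each cluster, and scaled to 1000000 UMIs (CPM) with Python 3.11.15, numpy 2.4.6, scipy 1.17.1 and pandas 2.3.3. A CPM has an exact Poisson, a share an exact binomial and a ratio an exact conditional binomial (Clopper-Pearson) 95% interval, for counting error only. Calls need 1.5-fold, an interval excluding 1 and 50 UMIs over both libraries, and a library at 0 was set to a floor of 3 UMIs. The call rule was checked on simulated data. Named are all 8 members, called genes of the pathway lists (at most 5 per list and comparison) and the 6 genes most like the class II sum with at least 200 UMIs. The result of 1 pathway list is not reported here. The members, lists and limits were chosen with earlier results of these data known. List genes singled out by level between strongly positive and other cells were chosen after their values were seen.

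Doublets were kept. Scrublet (scanpy 1.11.5), run per library with a score limit of 0.2 because its automatic limit for the heterozygote library moved with the number of processor threads, marked 13 of 3023 cells (0.430%), 1 of them among the 92 strongly positive microglial cells and 1 in cluster 07. Alternatives were TMM scaling (edgeR 4.0.16), per-cell means, thinned cells, no UMI minimum, other choices of cells and clusters, and limits of 0.2% and 1%. Leaving out cluster 04, cells with shared barcodes and either range of microglia markers was added after seeing the data, as were the top cell of single clusters and equal weights without 1 cell.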

Additional observations from a re-analysis of the deposited data

Results flagged for a closer look

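The heterozygote differed from wild-type cuprizone in opposite directions in the microglial clusters and in cluster 07 for 3 members, each with an interval that excludes 1 in both. The ratio was 1.05 in the microglial clusters and 0.884 in cluster 07 for Cd74, 1.12 and 0.803 for H2-Aa, and 1.17 and 0.801 for H2-Ab1. None of these passes 1.5-fold, and with 1 library a group the difference between the 2 sets of cells was not tested.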

How the results depend on the processing

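There were 17 alternatives. Of 470 values of single members 439 kept their direction and side of the call, 28 lost the call and 3 reversed. In all deposited cells the diet ratio of the class II sum was 1.27 (0 members called), and the knockout ratio was 0.674 against wild type and 0.682 against the heterozygote (1 member called in each). With the 6 clusters weighted the same the knockout ratios were 0.721 and 0.724 (1 member called in each), and without 1 knockout cell of cluster 04 they were 0.498 and 0.4999 (4 members called in each). Of 72 ratios of the class II sum in single clusters without the top cell of either or both libraries, 63 kept their direction and side of the call, 2 lost the call, 4 gained one and 3 reversed. The 3 are the knockout in cluster 04 without its top cell, at 0.624 against wild type and 0.596 against the heterozygote, and 0.636 against the heterozygote with both top cells left out. Without strongly positive cells 1 member was called for the diet in the microglial clusters. In cluster 07 the same alternative gave a diet ratio of 1.003 (1 member called; Cd74 0.944 and H2-Ab1 0.703, reversed) and a knockout ratio of 0.876 (1 member called; H2-Ab1 1.28, reversed). This alternative removes the cells with most class II by construction. In cluster 07 cells with microglia markers of 1% or more the knockout ratio was 0.735 (0 members called), and below 1% 2 members were called.

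At a limit of 0.2% the strongly positive share was 3.13%, 12.97%, 13.2% and 2.52% in the 4 libraries and 8.19% in all. At 1% it was 0% in control, 3.17% in wild-type cuprizone, 3.45% in the heterozygote, 0.398% in the knockout and 1.85% in all. Without called doublets and the deepest cells it was 0% in control. The TMM, per-cell mean, thinned, no-minimum, cluster 08, cluster 04, shared-barcode and top-cell alternatives changed no call on the sum of the 6 clusters or of cluster 07. Ciita and H2-DMb2 are limited by depth, with 25 and 239 UMIs. No paired analysis was possible because each group has 1 library.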

Other observations

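The neutrophil genes found in cluster 03 also occurred in the microglial clusters, where their 10 markers summed to 0.825 CPM in wild-type control, 49.2 in wild-type cuprizone, 1784 in the heterozygote and 651 in the knockout. In cluster 04 they were at 118 CPM in the strongly positive cells and 1500 in the other cells, and in cluster 07 at 1225 CPM in the class II-high and 181 in the class II-low cells, with 4857 CPM in the class II-high cells of the heterozygote. Their part in the class II values was not tested.

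In the T cell direction, the chemokine Ccl5 was at 22.0 CPM in wild-type control, 63.6 in wild-type cuprizone, 25.2 in the heterozygote and 62.9 in the knockout microglial clusters, an order that differs from that of the class II genes. Of 7 B cell markers listed 2 were measured. Cd79b was at 20.3 CPM in the strongly positive microglial cells and 27.6 in the others, and Jchain had 1 and 659 UMIs, of which 655 were in other cells of the control library. Only 14 control cells held these 655 UMIs, and 645 of them came from 4 cells of cluster 02.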
